A study of Mus musculus with 12 samples.

Results

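Small nucleolar RNA (snoRNA) and small Cajal body RNA (scaRNA) genes were followed through 12 total RNA libraries of mouse fibroblasts that could or could not lose Ssb1 and Ssb2. The set was every line of the count table whose symbol begins with Snord, Snora or Scarna followed by a digit, which gave 131 of 47517 genes: 83 named as C/D box snoRNAs (Snord), 39 as H/ACA box snoRNAs (Snora) and 9 as scaRNAs (Scarna). The choice used symbols only and no measured value. Of the 131 genes, 79 had a count in at least 1 library, 68 had enough counts to be tested (44 C/D, 17 H/ACA and 7 scaRNA) and 52 were listed at 0 throughout.

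The cells were mouse embryonic fibroblasts of C57BL/6 background, taken at E13.5 and immortalised with SV40T antigen. Controls were labelled Cre -ve, Ssb1 Fl/Fl and Ssb2 Fl/Fl, and the inducible cells Cre +ve, Ssb1 Fl/F and Ssb2 Fl/Fl, where Cre is RosaCreERT2 and is switched on by 4-hydroxytamoxifen (4-OHT). All 6 groups therefore carried floxed alleles of both genes, and only the Cre-positive cells could delete them. Each genotype was left untreated, given ethanol (the vehicle) or given 4-OHT, for 5 days in the treated groups, with 2 libraries per group. The labels do not say whether the libraries of a group were separate cultures or whether each genotype was more than 1 line, so the p-values cover the library-to-library spread only, and that spread may be technical.

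C/D box snoRNAs guide 2′-O-methylation and H/ACA box snoRNAs guide pseudouridylation, mostly of ribosomal RNA, while scaRNAs direct the same modifications on spliceosomal small nuclear RNAs in Cajal bodies. Most mammalian snoRNAs are cut out of the introns of host genes, so they are made with the host's transcript. A few, among them Snord118 (U8), Snord13 (U13), Scarna2 and Scarna17, are transcribed by RNA polymerase II from promoters of their own. Ssb1 and Ssb2 are single-stranded DNA-binding proteins that associate with Integrator, the complex that cleaves the 3′ ends of small nuclear RNAs, and the series asks what their loss does to transcription.

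The sequences below, written 5′ to 3′ from the GENCODE M21 transcripts on GRCm38, are those the results turn on. Capitals mark the C box (ATGATGA or GTGATGA) and the last CTGA (the D box) of C/D genes, or the last ACA of H/ACA genes. The first 2 are C/D genes that were tested and lie in no annotated gene on their own strand, at chr11:69073427-69073561 and chr11:106500993-106501062, both on the plus strand.
Snord118: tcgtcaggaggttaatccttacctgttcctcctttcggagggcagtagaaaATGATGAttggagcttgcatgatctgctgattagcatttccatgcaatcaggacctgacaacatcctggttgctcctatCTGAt
Snord104: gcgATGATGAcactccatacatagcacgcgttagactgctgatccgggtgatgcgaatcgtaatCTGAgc
Next come 3 C/D genes from introns of 1 host, the long noncoding RNA gene 2410006H16Rik, at chr11:62603450-62603521, chr11:62603079-62603150 and chr11:62604515-62604586, all on the plus strand.
Snord49a: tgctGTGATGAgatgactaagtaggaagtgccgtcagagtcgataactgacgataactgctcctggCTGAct
Snord49b: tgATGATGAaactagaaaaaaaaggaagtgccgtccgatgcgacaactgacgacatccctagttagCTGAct
Snord65: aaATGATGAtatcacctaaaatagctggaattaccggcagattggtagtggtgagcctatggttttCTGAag
Then come an H/ACA gene that lies partly in an exon of Kansl2 (chr15:98526346-98526482, minus strand), one from an intron of Tpt1 (chr14:75847905-75848034, plus strand), and Scarna13 (chr12:105031075-105031349, minus strand), an abundant scaRNA shown because no gene of its class was called with 4-OHT.
Snora2b: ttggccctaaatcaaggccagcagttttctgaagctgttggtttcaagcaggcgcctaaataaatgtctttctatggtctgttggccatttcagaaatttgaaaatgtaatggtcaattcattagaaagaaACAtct
Snora31: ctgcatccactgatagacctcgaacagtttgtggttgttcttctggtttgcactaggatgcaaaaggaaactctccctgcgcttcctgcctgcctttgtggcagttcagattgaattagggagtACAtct
Scarna13: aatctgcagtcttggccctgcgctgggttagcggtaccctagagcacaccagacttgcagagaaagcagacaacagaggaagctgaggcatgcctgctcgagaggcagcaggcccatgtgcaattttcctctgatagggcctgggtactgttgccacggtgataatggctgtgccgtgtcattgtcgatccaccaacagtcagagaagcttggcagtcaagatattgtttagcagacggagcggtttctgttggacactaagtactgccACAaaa

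The names matched the boxes in most but not all entries. A C box was present in 56 of the 83 C/D genes (67.5%), in 5 of the 9 scaRNA genes and in 0 of the 39 H/ACA genes. It began within the first 15 bases of 51 C/D genes, and later in Snord118, Snord13, Snord43, Snord85 and Snord90. The last ACA lay exactly 3 bases before the end in 30 of the 39 H/ACA genes (76.9%), in 2 of 9 scaRNA genes and in 0 C/D genes. An ACA at that place with a later ACA overlapping it was not counted. Counted from the 5′ end, the C box starts at base 52 in Snord118, against base 4 in Snord104. A search on the printed strand for these letters alone misses degenerate boxes, so absence of a match says nothing about the class.

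The labels were checked on the floxed genes first. Levels are given as CPM, counts scaled to the size of the library. In Cre-positive cells Nabp2 (Ssb1) measured 4.84 and 5.09 CPM with 4-OHT, 19.8 and 22.6 CPM with ethanol, and 22.5 and 20.7 CPM without treatment. Nabp1 (Ssb2) measured 3.40 and 3.96, 14.5 and 15.9, and 16.1 and 15.2 CPM in that order. Both were lower in every Cre-positive 4-OHT library than in the other 10, with log2 changes against ethanol of -2.10 (SE 0.0942) for Nabp2 and -2.05 (SE 0.104) for Nabp1 and edgeR adjusted p of 1.31e-12 and 7.51e-12. Library totals ran from 20201855 to 36367012 counts, of which 9228 to 18498 fell on the 131 genes. Of 8 fibroblast markers, 7 were tested and Thy1 was near 0 at 0.0318 CPM. The summed fibroblast level was 5242 to 7057 CPM in group means, against at most 1.91 CPM for 6 epithelial, 1.38 for 4 endothelial, 1.75 for 4 skeletal muscle, 3.82 for 5 haematopoietic and 91.9 for 5 neural markers, the last mostly Map2 and Sox2. Ptprc, Epcam, Cdh5, Snap25 and Myod1, picked from these lists, had means over all libraries of at most 0.0361 CPM. Other members were higher: Map2 at 50.7, Sox2 at 23.3, Tubb3 at 4.3, Cd68 at 3.27, Des at 1.21, Cdh1 at 0.665 and Tek at 0.35 CPM. Sox2 had group means of 30.3 to 41.2 CPM in Cre-positive and 9.63 to 11.8 CPM in Cre-negative cells. In bulk RNA, fewer cells that hold a transcript and less of it per cell cannot be told apart.

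Which genes gave counts at all went with where they sit. GENCODE M21 places 63 of the 131 wholly in introns of a same-strand host, 52 wholly in annotated host exons, 8 partly in exons and 8 in no same-strand gene. Of the 52 inside exons, 42 were listed at 0 in all libraries and 9 were tested. Of the 63 inside introns, 8 were at 0 and 48 were tested, and of the 8 without a host 1 was at 0 and 7 were tested: Snord118, Snord13, Snord104, Snora17, Snora57, Scarna2 and Scarna17. A count of 0 allows up to 0.0825 to 0.149 CPM depending on the library, by 3 counts of the total and for counting error only. Of the 52 genes at 0, 51 had a host, and for 39 of these 51 the host exceeded 10 CPM. Of the 79 genes with counts, 72 had a host, and for 61 of these 72 it exceeded 10 CPM. The host's level had a median of 71.0 CPM over the genes at 0 and 135.5 CPM over those with counts. Some genes share a host, and the part of the host's level in the zeros was not tested. Of the 52, 41 had a listed gene of at least 90% identity over at least 80% of their length, against 24 of the 79 with counts. How reads shared with a host exon or a near-identical gene were assigned is not given in the sources at hand, and its part in the zeros was not tested.

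**Figure D1:**
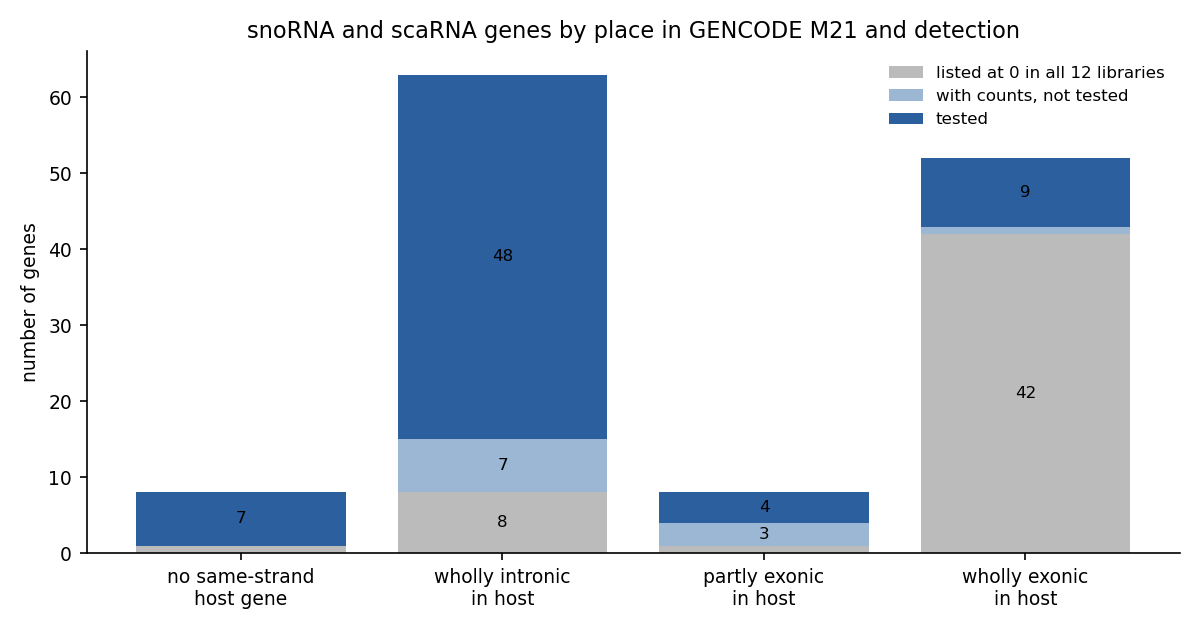
Number of genes (y axis) by place relative to a same-strand host gene in GENCODE M21 (x axis), split by colour into genes listed at 0 in all 12 libraries, genes with counts that were not tested, and tested genes. The wholly exonic column is mostly grey, with 42 of 52 genes at 0, and the wholly intronic column mostly blue, with 48 of 63 tested.

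Among the 68 tested genes, longer ones gave more counts: log2 CPM and log2 length correlated with Pearson's r of 0.676 and Spearman's rho of 0.498 across genes of the same libraries, given as a description. Silica columns are known to retain short RNAs poorly, and the part of this in the levels was not tested, so genes are compared with each other per kilobase only and not as molecules per cell. Per kilobase, the highest means over all libraries were Scarna2 at 360, Snora78 (in the noncoding host Snhg9 and on the strand opposite Rps2, so that its reads are uncertain) at 255, Snord17 (in an intron of Snx5) at 198 and Scarna13 (in Snhg10) at 186 CPM per kb. Snord118 followed at 149.6, Scarna6 at 138, Snora68 at 129, Snord104 at 123.5, Snord13 at 95.3 and Snora23 at 88.6 CPM per kb. Genes with fewer than about 2 CPM, such as Snord65 (24 to 64 counts per library) and Snord110 (14 to 42 counts), were measured far less precisely than Snord118 (352 to 1360 counts).

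Snord118 and Snord13 rose more than 2-fold in the Cre-positive 4-OHT cells against both references, and among the genes of the set that passed they had the highest log2 changes. A few genes with hardly any counts had higher values that did not pass, such as Snord123 against untreated at 1.62 (SE 1.41, edgeR adjusted p = 0.393), with 4 and 1 counts in the 4-OHT libraries. Snord118, which is needed for maturation of the large ribosomal subunit RNAs, measured 38.5 and 35.9 CPM with 4-OHT in Cre-positive cells, where ethanol gave 18.8 and 15.9 CPM and no treatment 16.3 and 18.4 CPM. In Cre-negative cells it measured 15.9 and 16.7 CPM with 4-OHT, where ethanol gave 13.65 and 13.68 CPM and no treatment 19.2 and 19.7 CPM. Both Cre-positive 4-OHT libraries lay above the other 10, whose ranges overlapped between genotypes. The log2 change was 1.10 against ethanol (SE 0.0765, edgeR adjusted p = 8e-10) and 1.11 against untreated (SE 0.0793, adjusted p = 6.39e-10). In Cre-negative cells 4-OHT against ethanol gave 0.25 (SE 0.0898, adjusted p = 0.103), and the difference between the genotypes' effects was 0.85 (SE 0.118, adjusted p = 1.89e-05).

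Snord13, which pairs with small-subunit ribosomal RNA and is needed for its acetylation, also rose. It measured 18.8 and 18.45 CPM in Cre-positive cells with 4-OHT, where ethanol gave 9.28 and 7.71 CPM and no treatment 6.49 and 8.65 CPM. The Cre-negative values were 7.82 and 8.12 CPM with 4-OHT, with 7.29 and 7.56 CPM for ethanol and 8.55 and 10.2 CPM for no treatment. Again the 2 Cre-positive 4-OHT libraries were above all others without overlap. The log2 change was 1.14 against ethanol (SE 0.107, edgeR adjusted p = 5.29e-08) and 1.32 against untreated (SE 0.114, adjusted p = 9.96e-09), with a difference between genotypes of 1.03 (SE 0.167, adjusted p = 9.32e-05).

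Against untreated cells the difference between genotypes was larger, 1.36 for Snord118 (SE 0.118, edgeR adjusted p = 5.37e-08) and 1.55 for Snord13 (SE 0.17, adjusted p = 1.07e-06). Between ethanol and untreated Cre-negative cells Snord118 was lower, with a log2 change of -0.51 (SE 0.088, adjusted p = 0.000182), and Snord13 gave -0.34 (SE 0.125, adjusted p = 0.0524). In Cre-positive cells the same contrast gave 0.00 for Snord118 and 0.18 for Snord13, with adjusted p of 0.985 and 0.407. The 4-OHT libraries are shared by the ethanol and untreated comparisons, which are therefore not independent. Both genes passed in every alternative run, with log2 changes against ethanol of 0.98 to 1.23 for Snord118 and 1.01 to 1.27 for Snord13.

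Snord104, the third tested C/D gene without a host in GENCODE M21, rose less. Its Cre-positive values were 9.99 and 10.75 CPM with 4-OHT, 8.14 and 7.68 CPM with ethanol, and 8.34 and 8.45 CPM without treatment, and its Cre-negative values 7.11 and 8.85, 8.84 and 9.03, and 8.64 and 7.89 CPM in the same order. The 2 Cre-positive 4-OHT libraries were again the highest of the 12, by a smaller margin. The log2 change was 0.39 against ethanol (SE 0.103, edgeR adjusted p = 0.00476) and 0.30 against untreated (SE 0.106, adjusted p = 0.0271), and the difference between genotypes 0.54 (SE 0.149, adjusted p = 0.00976). Without the second ethanol library the first of these had an adjusted p of 0.0504. The call against untreated was lost in 5 of 10 alternatives (total counts, DESeq2, and without either untreated or the second 4-OHT library), and the difference between genotypes in 2 of 14 (DESeq2 and without the first Cre-negative 4-OHT library). Across all genes, 8.93% were called higher in these 3 comparisons together, and of the set these 3 genes were.

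The other tested genes without a host in GENCODE M21 did not pass in the 4-OHT comparisons. Scarna2, which guides modification of U2 small nuclear RNA, measured 141 and 134 CPM in Cre-positive cells with 4-OHT, where ethanol gave 140 and 122.5 CPM and no treatment 131 and 119 CPM. The 4-OHT values overlapped those of ethanol and lay just above those without treatment. The log2 change against ethanol was 0.07 (SE 0.062, edgeR adjusted p = 0.426), against untreated 0.14 (SE 0.063, adjusted p = 0.093). Scarna17 was at 3.20 and 3.23 CPM with 4-OHT against 2.95 and 3.59 with ethanol, a log2 change of -0.03 (SE 0.175, adjusted p = 0.919). Snora17 and Snora57 gave 0.19 and -0.16 against ethanol, with adjusted p of 0.141 and 0.298. Each p misses the threshold and does not show that these levels were equal.

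**Figure D2:**
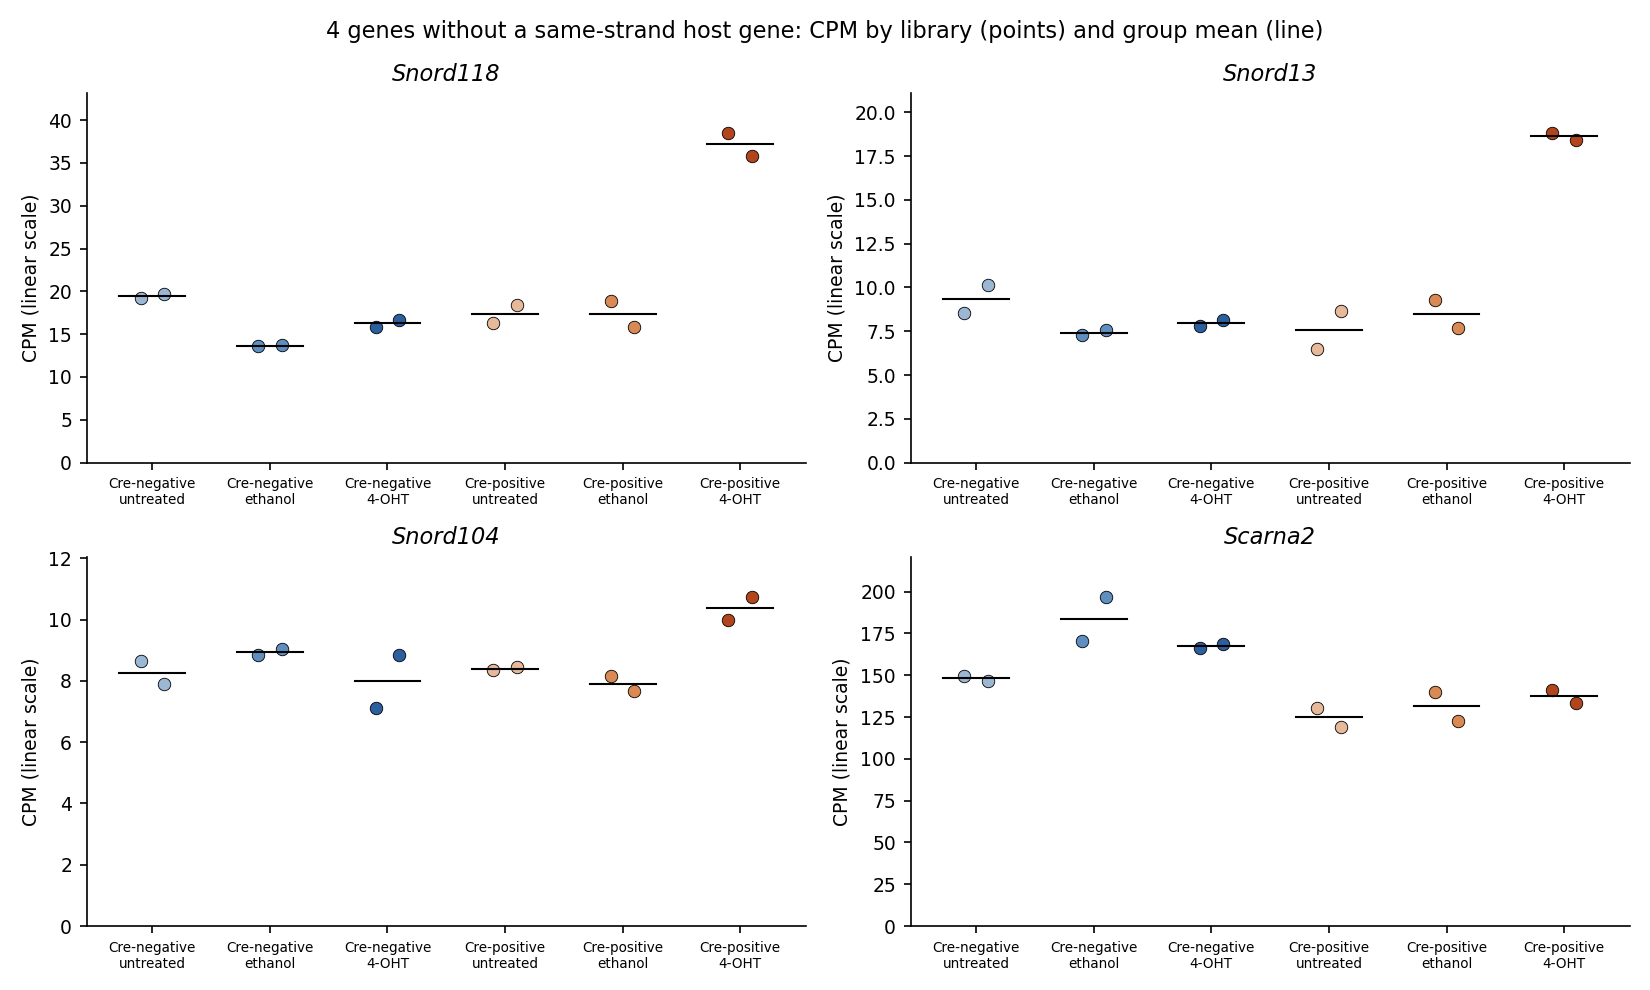
CPM on linear axes from 0 (y axis) in each of 12 libraries (points) and as group means (lines), by genotype and treatment (x axis), for Snord118, Snord13, Snord104 and Scarna2. The Cre-positive 4-OHT points stand above all others for Snord118 (38.5 and 35.9 CPM) and Snord13 (18.8 and 18.45 CPM), slightly above for Snord104, and within the range of the other libraries for Scarna2.

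The nearest annotated gene upstream of Snord118 on the same strand was set beside it. Tmem107 ends 133 bases before Snord118 on the same strand. It measured 6.48 and 6.23 CPM with 4-OHT against 6.56 and 6.97 with ethanol in Cre-positive cells, a log2 change of -0.09 (SE 0.148, edgeR adjusted p = 0.669). Snord118 has 1 near-identical listed gene, at a mean of 0.00367 CPM, and Snord13 and Snord104 have none. Reads within the genes cannot be separated into mature and longer transcripts in a table of gene counts.

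Over all 68 tested genes, 4-OHT against ethanol in Cre-positive cells gave 4 genes that rose and 12 that fell, 23.5% of the set, where 38.3% of all 17609 tested genes were called (21.1% higher and 17.2% lower). The median log2 change was -0.21, against 0.03 for all genes, and 49 of 68 values were below 0. The CPM of the compared libraries did not overlap for 9 genes that were higher and 29 that were lower, where 36.9% and 30.6% of all genes did so. Of the C/D genes 3 rose and 8 fell of 44 (median -0.25), and of the H/ACA genes 1 rose and 4 fell of 17 (median -0.21). No scaRNA gene was called of 7 (median 0.07) by edgeR, with 0 at an unadjusted p under 0.05 and 0 by DESeq2. All 3 rises among C/D genes were in the genes without a host in GENCODE M21. Of the 12 falls, 10 were in genes wholly inside host introns, of which 48 were tested. DESeq2 called 10 genes in place of 16, 3 higher and 7 lower.

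**Figure D3:**
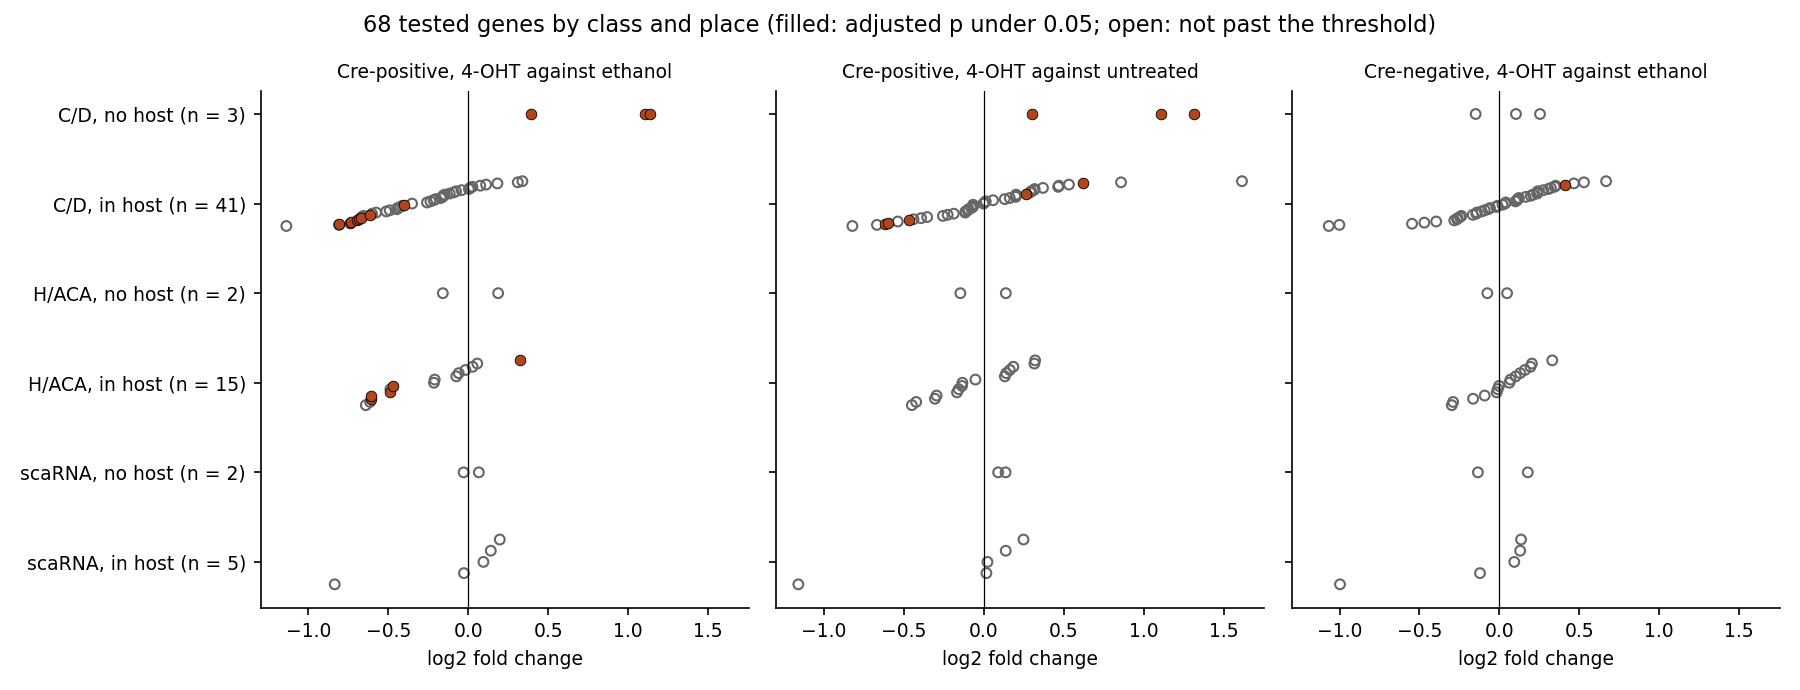
Log2 fold change (x axis) of the 68 tested genes by class and by whether they lie in a same-strand host (y axis, with points spread in rank order within a line), for 3 comparisons; filled points passed an adjusted p of 0.05. The 3 C/D genes without a host in GENCODE M21 are filled to the right of 0 in both Cre-positive panels and open in the Cre-negative one. Filled points of hosted genes lie mostly to the left in the first panel.

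The falls against ethanol included 3 ribosomal RNA methylation guides of the host 2410006H16Rik. Snord49a measured 3.99 and 3.40 CPM with 4-OHT in Cre-positive cells, where ethanol gave 7.07 and 5.33 CPM and no treatment 5.35 and 4.87 CPM, and 5.38 to 6.79 CPM over the 6 Cre-negative libraries. Its 2 Cre-positive 4-OHT values were the lowest of the 12. The log2 change was -0.73 against ethanol (SE 0.144, edgeR adjusted p = 0.000389) and -0.47 against untreated (SE 0.155, adjusted p = 0.0212), with a difference between genotypes of -0.64 (SE 0.199, adjusted p = 0.0196). It was the 1 gene of the set called lower in these 3 comparisons together, as were 8.51% of all genes. The difference between genotypes lost its call in 5 of 14 alternatives, DESeq2 among them. Its value ran from -0.84 to -0.43 as each library was left out in turn. The fall against untreated lost its call without the first untreated or the second 4-OHT library and with DESeq2.

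Snord49b measured 2.49 and 2.13 CPM with 4-OHT against 4.64 and 3.19 with ethanol and 2.79 and 2.75 untreated, a log2 change against ethanol of -0.74 (SE 0.18, edgeR adjusted p = 0.0026). Snord65 measured 1.19 and 1.27 CPM against 2.36 and 1.94 with ethanol and 1.02 and 1.18 untreated, a change of -0.81 (SE 0.203, adjusted p = 0.00341). For both, 4-OHT lay below ethanol without overlap. Against untreated their values were -0.26 and 0.16, with adjusted p of 0.341 and 0.65. Their shared host gave 73.7 and 70.2 CPM with 4-OHT against 74.6 and 69.0 with ethanol, a log2 change of 0.00 (SE 0.0483, adjusted p = 0.951), and 0.32 against untreated (SE 0.0505, adjusted p = 3.26e-05). These 3 genes share 1 host transcript and are not separate measurements of the condition.

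Snord110, from an intron of Nop56, measured 1.08 and 0.699 CPM with 4-OHT against 1.55 and 1.37 with ethanol and 0.747 and 0.688 untreated. Its log2 change against ethanol was -0.69 (SE 0.249, edgeR adjusted p = 0.0329), and against untreated it was 0.32 (adjusted p = 0.44). Snord82, from an intron of Ncl, measured 0.821 and 1.47 CPM against 1.73 and 1.88 with ethanol and 0.787 and 0.836 untreated, with changes of -0.69 (SE 0.25, adjusted p = 0.0353) and 0.47 (adjusted p = 0.254). For both genes the ethanol libraries stood out, above 4-OHT and untreated alike. Their hosts encode nucleolar proteins and had log2 changes against ethanol of -0.56 for Nop56 (SE 0.0391, adjusted p = 8.1e-10) and -0.57 for Ncl (SE 0.0417, adjusted p = 1.6e-09).

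The remaining C/D falls against ethanol were Snord100 (in Rps12) at -0.67, Snord89 at -0.62 and Snord83b (in Rpl3) at -0.40, with edgeR adjusted p of 0.00288, 0.049 and 0.0172. Among them Snord100 was also lower against untreated, at -0.62 (SE 0.174, adjusted p = 0.00713), although its sequence lies in an annotated Rps12 exon and its reads are uncertain. That call was lost without the first untreated library, where the value was -0.30.

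H/ACA genes that fell against ethanol were all hosted by genes of the translation machinery or Tpt1. Snora41 (Eef1b2) measured 2.41 and 2.60 CPM with 4-OHT against 4.24 and 3.42 with ethanol, a log2 change of -0.61 (SE 0.152, edgeR adjusted p = 0.0031). Snora31 (Tpt1) measured 3.11 and 3.03 CPM against 5.23 and 4.19, a change of -0.61 (SE 0.158, adjusted p = 0.00438). Neither pair overlapped. Snora33, which lies wholly in an annotated Rps12 exon and whose reads are uncertain, measured 3.34 and 3.46 CPM against 5.27 and 4.32, at -0.49 (SE 0.14, adjusted p = 0.0085), and Snora62 (Rpsa) 3.43 and 2.93 against 4.42 and 4.43, at -0.47 (SE 0.14, adjusted p = 0.0112). Snora41, Snora31 and Snora33 also had lower values in the difference between genotypes, of -0.60, -0.74 and -0.56, with adjusted p of 0.0447, 0.0175 and 0.0287. These calls were lost in 9, 4 and 6 of 14 alternatives, DESeq2 among them for each. Against untreated none of the 4 passed, with values of -0.31, -0.17, -0.30 and -0.13. Without the first ethanol library 8 of the 16 calls against ethanol were kept, and those lost included Snord49b, Snord110, Snord82, Snora41, Snora31 and Snora33. With ethanol and untreated as 1 reference 9 of the 16 were kept, and those lost included Snord65, Snord110, Snord82, Snora31 and Snora62. Without the second ethanol library 9 were kept.

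Snora2b was the H/ACA gene that rose. It measured 6.74 and 6.89 CPM in Cre-positive cells with 4-OHT, with 5.27 and 5.60 CPM for ethanol and 5.98 and 4.87 CPM for no treatment, and 2.30 to 3.18 CPM over the 6 Cre-negative libraries. The 2 genotypes did not overlap under any treatment. The change against ethanol was 0.32 (SE 0.121, edgeR adjusted p = 0.0393) and was lost in 7 of 11 alternatives, among them leaving out any 1 of the 4 libraries compared and DESeq2. Untreated Cre-positive cells exceeded untreated Cre-negative cells by 1.00 (SE 0.154, adjusted p = 1.19e-05). Its host Kansl2 rose against ethanol by 0.30 (SE 0.0541, adjusted p = 0.000143) and gave 0.10 between the untreated genotypes (adjusted p = 0.184). Part of Snora2b lies in a Kansl2 exon and 4 listed genes are near-identical to it, together at 2.40 CPM, so its reads are uncertain.

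Members and hosts were set side by side for the 59 tested genes that have a tested host (50 hosts). Against ethanol in Cre-positive cells, 6 hosts rose and 21 fell, where 21.1% of all genes were higher and 17.2% lower, with a median of -0.10, beside a median of -0.24 for the hosted genes. The log2 changes of gene and host had Pearson's r of -0.0227 and Spearman's rho of -0.105 over these 59 points. Against untreated, 10 hosts rose and 16 fell, where 21% of all genes were higher and 18.2% lower, and r and rho were 0.0237 and -0.0566. Points share libraries and often hosts, most of the genes have few counts, and these values are descriptions only.

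**Figure D4:**
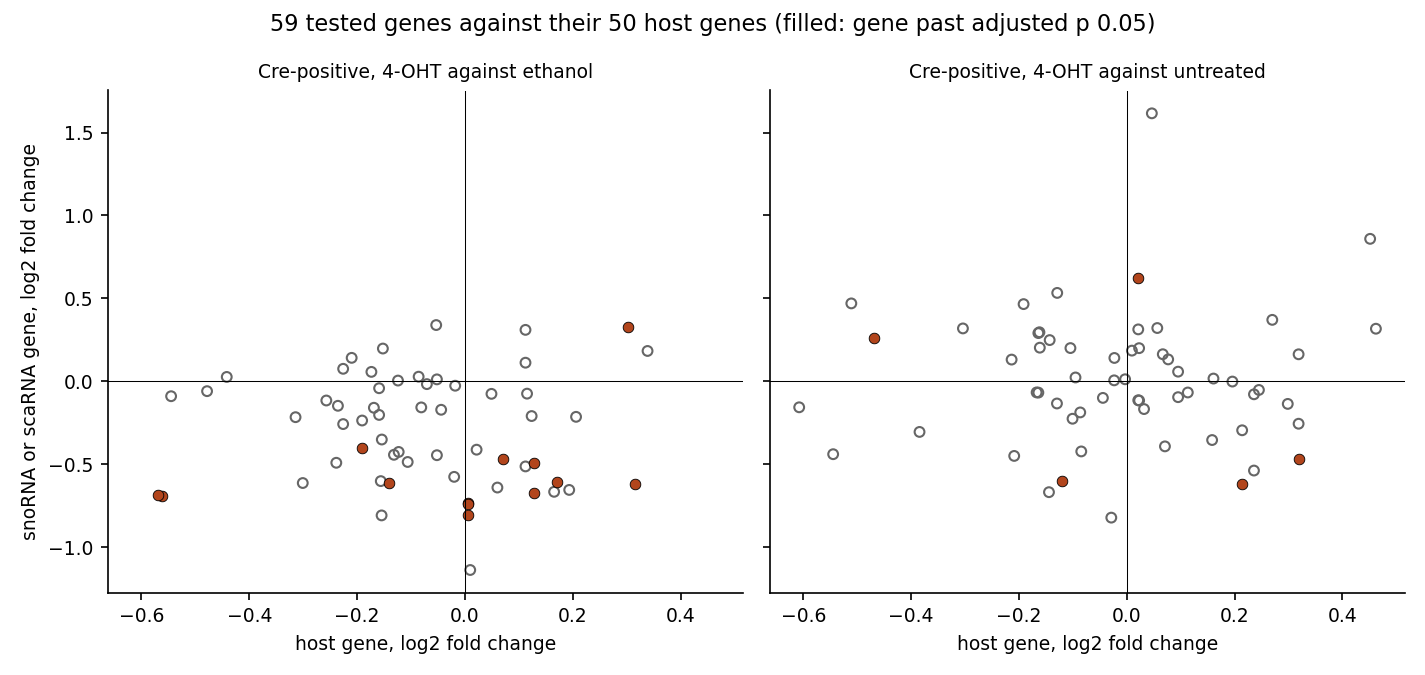
Log2 fold change of the 59 hosted genes (y axis) against that of their host genes (x axis) in Cre-positive cells, for 4-OHT against ethanol and against untreated; filled points are genes past an adjusted p of 0.05. The points form no line in either panel (Pearson's r of -0.0227 and 0.0237).

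Against untreated Cre-positive cells, 4-OHT gave 5 genes that rose and 3 that fell of 68, where 39.2% of all genes were called (21% higher and 18.2% lower). The median was 0.01, as for all genes, and all 8 genes were C/D. Libraries did not overlap for 20 higher and 16 lower genes, where 36.4% and 32.7% of all genes did so. No H/ACA gene of 17 and no scaRNA gene of 7 passed by edgeR, with 1 H/ACA and 3 scaRNA genes at an unadjusted p under 0.05 and 0 of either class by DESeq2. Beside Snord118, Snord13 and Snord104, Snord32a and Snord17 rose. Snord32a, a methylation guide from an intron of Rpl13a, measured 2.41 and 2.80 CPM with 4-OHT against 1.77 and 1.57 untreated and 2.03 and 2.15 with ethanol, a log2 change against untreated of 0.62 (SE 0.195, edgeR adjusted p = 0.0145). Snord17 measured 43.5 and 45.1 CPM against 36.2 and 37.7 untreated and 42.8 and 44.1 with ethanol, a change of 0.26 (SE 0.0655, adjusted p = 0.00298). The ethanol values of Snord17 lay with those of 4-OHT, and 4-OHT against ethanol gave 0.03 (adjusted p = 0.776). Its host Snx5 fell against untreated by 0.47 (SE 0.0366, adjusted p = 2.26e-09).

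The genes lower than untreated were Snord100 and Snord49a, given above, and Snord111. Snord111, partly in an exon of Sf3b3, measured 1.61 and 1.30 CPM with 4-OHT against 2.24 and 2.21 untreated, at -0.60 (SE 0.215, adjusted p = 0.0308). The count of 8 fell to 5 without the second untreated library, to 4 without the second 4-OHT library and to 4 with DESeq2, which called Snord118, Snord13, Snord17 and Snord100.

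In Cre-negative cells, 4-OHT against ethanol called 1 of the 68 genes, where 5.99% of all genes were called (3.33% higher and 2.65% lower), and the median was 0.04. Libraries did not overlap for 15 higher and 13 lower genes, where 25.3% and 25.7% of all genes did so. The called gene was Snord43 (in Rpl3), at 7.42 and 7.33 CPM with 4-OHT against 5.74 and 5.37 with ethanol, a log2 change of 0.41 (SE 0.118, edgeR adjusted p = 0.0431). The call was lost in 7 of 10 alternatives, among them leaving out any 1 of the 4 libraries compared. The count was 0 without the first 4-OHT or the second ethanol library, with total counts and with DESeq2, and 3 when the compared libraries were fitted alone.

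The effect of 4-OHT against ethanol differed between genotypes for 13 genes, 4 higher and 9 lower, where 28.3% of all genes were called (14.5% higher and 13.8% lower). The set's median difference was -0.21. The higher genes were Snord13, Snord118, Snora2b and Snord104. The lower ones were Snord73a at -1.04, Snord110 at -1.02, Snora31, Snord83b at -0.68, Snord43 at -0.65, Snord49a, Snora41, Snora33 and Snora68 at -0.54. Snord73a lost this call in 9 of 13 alternatives, Snord110 in 7 of 13 and Snora2b in 7 of 14. Snord43 and Snora68 had moved little in Cre-positive cells, at -0.24 (adjusted p = 0.113) and -0.21 (adjusted p = 0.144), and their values in Cre-negative cells were 0.41 and 0.33. The count dropped to 5 and 7 without either Cre-negative 4-OHT library, to 6 without the second Cre-negative ethanol library, to 7 without the second Cre-positive 4-OHT library and to 4 with DESeq2, and the calls of Snord118 and Snord13 were kept in each. Against untreated the effect differed for 3 genes, all higher (Snord118, Snord13 and Snord32a at 0.75, adjusted p = 0.0407), where 12% of all genes were higher, 11.7% lower and 23.8% called. At an unadjusted p under 0.05 by edgeR 3 C/D genes and 1 H/ACA gene were lower, and DESeq2 called 0 lower.

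Ethanol-treated Cre-positive cells were compared with untreated ones. The labels give 5 days for ethanol and no time for untreated cells, so the vehicle and the time in culture cannot be told apart. Of the set 7 genes rose and 0 fell of 68 (10.3%), where 14.9% of all genes were called (8.11% higher and 6.84% lower), and the median was 0.16. Libraries did not overlap for 27 higher and 3 lower genes, where 25.6% and 27.4% of all genes did so. At an unadjusted p under 0.05 by edgeR 11 C/D and 3 H/ACA genes were higher and 0 lower, and DESeq2 called 3, all higher. Highest among the genes that passed were Snord82 at 1.16 (SE 0.292, edgeR adjusted p = 0.00973), Snord110 at 1.01 (SE 0.284, adjusted p = 0.0186) and Snord65 at 0.97 (SE 0.226, adjusted p = 0.00556), 3 of the genes that were then lower with 4-OHT than with ethanol. The same ethanol libraries enter both comparisons, so the opposite signs are not independent. The count fell to 2 without the second ethanol library, to 0 without the first untreated library and to 3 without the second. In Cre-negative cells the contrast called 3 genes, where 24.5% of all genes were called (12.5% higher and 12% lower), and libraries did not overlap for 13 higher and 16 lower genes, where 30.6% and 30% of all genes did so. Scarna2 at 0.31 (SE 0.0616, adjusted p = 0.000677) and Snora78 at 0.21 (SE 0.0724, adjusted p = 0.0389) rose, and Snord118 fell as given above.

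Untreated Cre-positive cells already differed from untreated Cre-negative cells. There 2 genes were higher and 17 lower of 68, where 49% of all genes were called (24.4% higher and 24.6% lower), with a median of -0.20. Libraries did not overlap for 8 higher and 35 lower genes, where 36.8% and 35.9% of all genes did so. Higher were Snora2b and Snord111 (0.71, SE 0.23, edgeR adjusted p = 0.0143). Lower were genes of each class, among them Snord82 at -1.09 (SE 0.3, adjusted p = 0.00463), Snord32a at -0.89 (SE 0.196, adjusted p = 0.00063), Snora33 at -0.54 (SE 0.142, adjusted p = 0.00299), Snora68 at -0.52 (SE 0.119, adjusted p = 0.00102), Snord17 at -0.38 (SE 0.0666, adjusted p = 5.83e-05), Scarna13 at -0.29 (SE 0.063, adjusted p = 0.00063) and Scarna2 at -0.24 (SE 0.0636, adjusted p = 0.00291). Snord32a measured 1.77 and 1.57 CPM in untreated Cre-positive and 3.26 and 3.01 CPM in untreated Cre-negative cells, so its rise with 4-OHT brought it to 2.41 and 2.80, still below the Cre-negative values. Genotype and any other difference between the cell lines cannot be told apart. The count was 12 without the first Cre-negative or the first Cre-positive library and 9 with DESeq2.

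The classes were also compared by their summed level. In Cre-positive cells the C/D sum was 173 ± 1.48 CPM with 4-OHT (mean ± SD, n = 2), 155 ± 5.87 with ethanol and 135 ± 0.849 untreated. The H/ACA sum was 114 ± 4.6, 122 ± 5.66 and 109 ± 0.495 CPM, and the scaRNA sum 231 ± 5.87, 222 ± 16.2 and 213 ± 4.88 CPM, in the same order and with n = 2 each. Scarna2 alone made up 58.6% to 65.5% of the scaRNA sum in group means. The C/D sum includes Snord118 and Snord13, which had the highest log2 changes among the genes that passed. Without them it was 117 ± 3.6 CPM with 4-OHT, below 129 ± 2.66 with ethanol and above 109.8 ± 2.19 untreated (n = 2 each). This was a choice made after seeing the data, and leaving out genes that rose lowers the 4-OHT sum relative to the others by construction. In Cre-negative cells the C/D sums were 164 ± 2.76, 156 ± 1.63 and 159.6 ± 2.9 CPM with 4-OHT, ethanol and untreated (n = 2 each).

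**Figure D5:**
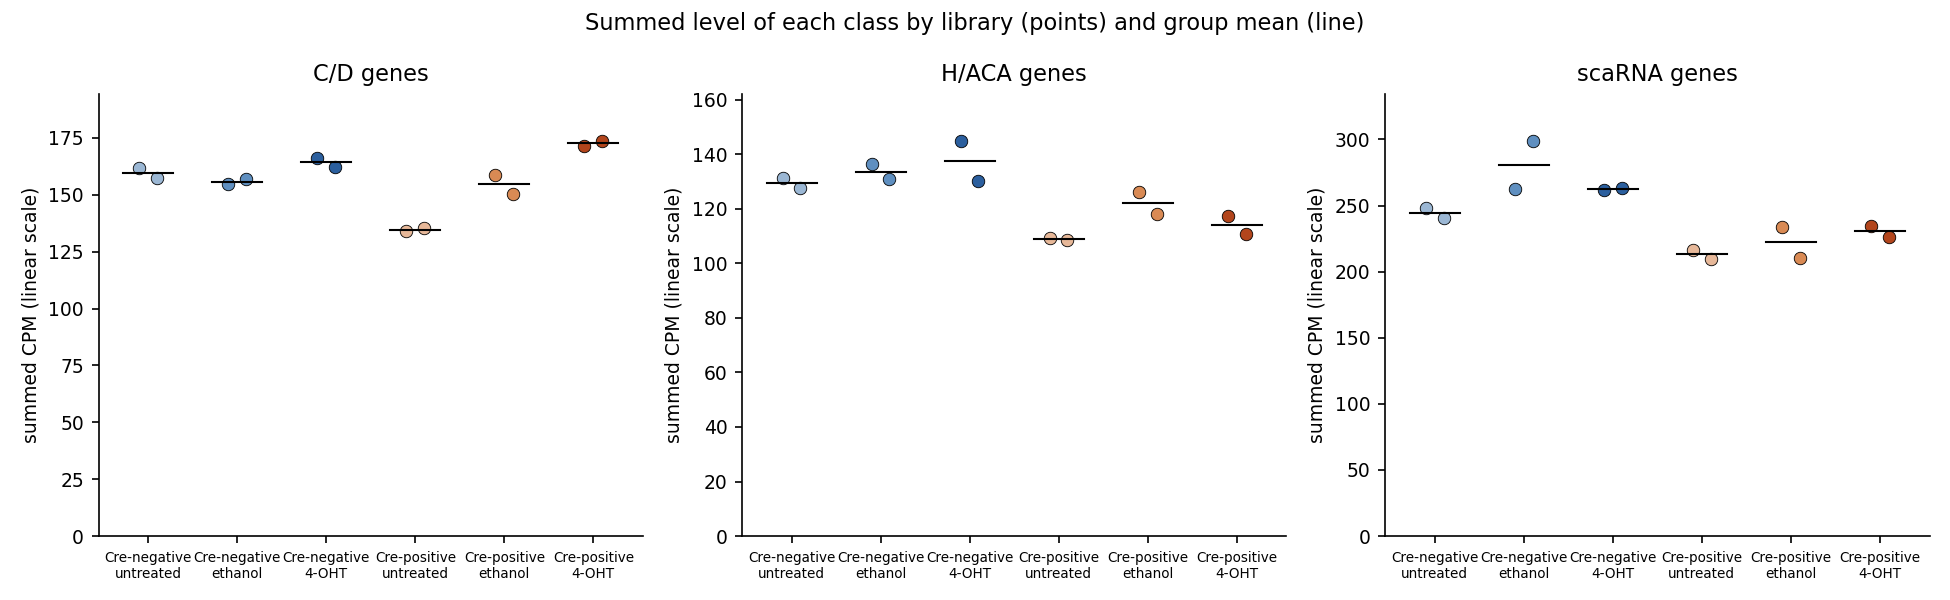
Summed CPM of the C/D, H/ACA and scaRNA genes on linear axes from 0 (y axis) in each library (points) with group means (lines), by genotype and treatment (x axis). The Cre-positive 4-OHT libraries have the highest C/D sums (173 CPM on average) and not the highest H/ACA or scaRNA sums.

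The proteins that carry and mature these RNAs were taken from 4 lists (core proteins of each class, assembly and trafficking, and intron release and end trimming). Of 35 tested genes, 8 rose and 14 fell in Cre-positive cells with 4-OHT against ethanol, where 21.1% of all genes were higher and 17.2% lower, with a median of -0.10. Among core proteins of the C/D particle, Nop56 fell, as given above, and Nhp2l1, which binds the box motif, rose by 0.15 (edgeR adjusted p = 0.0188), while Nop58 and the methyltransferase Fbl gave -0.05 and -0.10 with adjusted p of 0.329 and 0.437. Among H/ACA core proteins the pseudouridine synthase Dkc1 fell by 0.39 (SE 0.0375, adjusted p = 6.36e-08) and Gar1 by 0.64 (SE 0.0821, adjusted p = 3.21e-06), and Nhp2 rose by 0.10 (adjusted p = 0.0441). Dkc1, Gar1 and Nop56 also fell against untreated, at -0.20, -0.50 and -0.30, with adjusted p of 0.000211, 7.64e-05 and 2.87e-06.

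Of 18 assembly and trafficking genes 6 rose and 7 fell, against the same shares of all genes. Those that rose included Ncbp2, a cap-binding subunit, by 0.28 (SE 0.0504, edgeR adjusted p = 0.000172), Phax, the export adaptor for capped small RNAs, by 0.21 (SE 0.0532, adjusted p = 0.00428), Coil, the Cajal body scaffold, by 0.32 (SE 0.0793, adjusted p = 0.00307), and Nufip1 by 0.15 and Xpo1 by 0.12. Nufip1 lost its call in 6 and Xpo1 in 4 of 11 alternatives. Xpo1 also rose with 4-OHT in Cre-negative cells, by 0.19 (adjusted p = 0.00257), with a difference between genotypes of -0.08 (adjusted p = 0.283). Phax and Nufip1 were also higher than untreated, at 0.23 and 0.25, with adjusted p of 0.00181 and 0.00033. Ncbp2 gave 0.11 against untreated (adjusted p = 0.0926). With ethanol as the reference, the difference between genotypes was 0.20 for Ncbp2 (adjusted p = 0.0463) and 0.36 for Coil (adjusted p = 0.0188). It did not pass for Phax at 0.20 (adjusted p = 0.0673) or Nufip1 at 0.17 (adjusted p = 0.0608). Those that fell included the H/ACA assembly factor Naf1 by 0.48 (adjusted p = 0.00317), the C/D assembly factor Znhit6 by 0.59 (adjusted p = 9.42e-06), the cap hypermethylase Tgs1 by 0.30 (adjusted p = 0.000731) and Wrap53, which takes scaRNAs to Cajal bodies, by 0.33 (adjusted p = 0.00288). Of 9 release and trimming genes 4 fell, the exonucleases Xrn2 by 0.34 (SE 0.038, adjusted p = 5.81e-07) and Xrn1 by 0.38 (SE 0.0499, adjusted p = 4.29e-06), Parn by 0.27 (adjusted p = 0.00119) and Dis3 by 0.14 (adjusted p = 0.00596). Against untreated, Naf1 gave -0.17 (adjusted p = 0.324), Dis3 0.01 (adjusted p = 0.735), Xpo1 0.01 (adjusted p = 0.806) and Coil 0.07 (adjusted p = 0.503), while Znhit6, Tgs1, Wrap53, Xrn2, Xrn1 and Parn were also lower. Whether these changes bear on the level of any snoRNA was not tested.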

How the data were processed

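RNA was measured in 12 libraries, 2 for each of 6 groups, made per the labels' protocols with RNeasy Plus columns and the TruSeq Stranded Total RNA kit after ribosomal RNA depletion. The authors deposited expected counts for each symbol, all of them whole numbers. Tools named in the submitters' processing notes are STAR 2.5.2a, RSEM 1.2.30, cutadapt 1.11 and edgeR without a version, on GRCm38. Not given in the sources used here are the annotation, the strand setting and the handling of reads that match several genes.

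Genes were kept by filterByExpr in edgeR 4.0.16 (R 4.3.3), 17609 in all, and scaled by TMM (factors 0.972 to 1.02). The edgeR quasi-likelihood fit used all 12 libraries and a term for each group (6 residual degrees of freedom, biological coefficient of variation 3.44%). Tests were 2-sided, with Benjamini-Hochberg adjustment across the 17609 genes and calls at 0.05. SE values come from the F statistic, and CPM use TMM-scaled totals. There were 8 comparisons. Library pairs differed beyond sampling (chi-square per degree of freedom 2.52 to 5.03), so none was taken as a copy. On data simulated for Cre-positive 4-OHT against ethanol (17120 genes), 79% of 1.5-fold and 95% of 2-fold changes were recovered. Of 16920 unchanged genes 10 were called. The changed genes, 100 for each fold, were drawn from all tested genes above a floor of expected counts. Recovery below that floor, and in the set itself, was not measured.

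Positions, lengths, hosts and sequences are from GENCODE M21. A host is a gene on the same strand that holds the whole entry. Genes without a host are those for which this annotation lists none. A host missing from it would not be seen, and whether such genes are transcribed on their own was not tested. Near-identical genes were sought with BLAST 2.17.0 (at least 90% identity over 80% of the length). Antisense reads were not assessed. Some sequences and host genes are not reported here.

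The genes and lists were chosen with earlier results of these data known. Named by rule were Nabp1 and Nabp2; Snord118, Snord13, Scarna2 and Scarna17; per class and direction up to 5 genes (2 for the comparisons of ethanol with untreated, of untreated genotypes and of the difference against untreated) with the largest fold among those that passed, with average log2 CPM of at least 0 and no overlap; genes called in the 3 comparisons together; the 3 highest per kilobase in each class; up to 5 protein genes per direction by smallest p; and hosts. Snord123, Snord89, Snord85, Snord90, Snora17, Snora57, Naf1, Znhit6, Tgs1, Wrap53, Parn, Dis3, Nhp2l1, Nhp2, Nop58, Fbl and the neighbours were added after their values were seen. So were the cell type markers named singly: Thy1, Map2, Sox2, Tubb3, Ptprc, Cd68, Epcam, Cdh1, Cdh5, Tek, Snap25, Myod1 and Des. Alternatives were other scaling, filters, DESeq2 1.42.0, the compared libraries alone, a joint reference and leaving out each library.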

Additional observations from a re-analysis of the deposited data

Results flagged for a closer look

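The effect of 4-OHT differed between Cre-positive and Cre-negative cells, by the interaction term of the edgeR model, for 13 of the 68 tested genes with ethanol as the reference, against 28.3% of all tested genes. Log2 differences above 0 were those of Snord13 (1.03, adjusted p = 9.32e-05), Snord118 (0.85, adjusted p = 1.89e-05), Snora2b (0.62, adjusted p = 0.032) and Snord104 (0.54, adjusted p = 0.00976). C/D genes with differences below 0 were Snord73a (-1.04, adjusted p = 0.0417), Snord110 (-1.02, adjusted p = 0.0424), Snord83b (-0.68, adjusted p = 0.00761), Snord43 (-0.65, adjusted p = 0.00552) and Snord49a (-0.64, adjusted p = 0.0196). H/ACA genes below 0 were Snora31 (-0.74, adjusted p = 0.0175), Snora41 (-0.60, adjusted p = 0.0447), Snora33 (-0.56, adjusted p = 0.0287) and Snora68 (-0.54, adjusted p = 0.0121). With untreated cells as the reference the effect differed for Snord13 (1.55, adjusted p = 1.07e-06), Snord118 (1.36, adjusted p = 5.37e-08) and Snord32a (0.75, adjusted p = 0.0407). Groups of 2 libraries are too small for a test of a single outlying library.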

How the results depend on the processing

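Genes called moved by over 1.5 times in these settings. With DESeq2 there were 10 for Cre-positive 4-OHT against ethanol (16 in the main analysis), 4 against untreated (8), 0 for the Cre-negative comparison (1), 4 for the difference against ethanol (13), 3 for Cre-positive ethanol against untreated (7) and 9 for the untreated genotypes (19). With total counts only, the Cre-negative comparison had 0, and with only the libraries compared it had 3 and the difference against untreated 5 (3). Leaving out each library in turn gave 12 in all 4 cases for 4-OHT against ethanol, 4 to 10 against untreated, 0 to 1 for the Cre-negative comparison, 5 to 13 and 2 to 4 for the differences against ethanol and untreated, 0 to 5 and 2 to 4 for ethanol against untreated in Cre-positive and Cre-negative cells, and 12 to 15 for the untreated genotypes. The log2 ratio of the C/D sum was 0.16 against ethanol and 0.36 against untreated. Without Snord17 it was 0.21 and 0.39, without Snord118 and Snord13 (chosen after seeing the data) -0.14 and 0.09, and with total counts 0.32 against untreated; the scaRNA ratio against untreated went from 0.11 to 0.0737 with total counts. Total counts also moved the share of higher calls among all genes from 55.7% to 41.9% (Cre-negative), 50.6% to 40.4% (difference against untreated) and 54.3% to 40.8% (Cre-positive ethanol). Of 667 values of the named snoRNA and scaRNA genes under alternatives, 527 kept side and sign, 133 lost the call, 1 gained one, 6 uncalled values changed sign and 0 called values did. The cause was not tested. No paired analysis was possible because the groups share no library number.

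Short genes with few counts limit what can be seen. For the 52 genes at 0 the upper limit holds for counting error only. It does not cover reads assigned to a host exon or a near-identical gene, and such assignment was not tested. Every call rests on 2 libraries a group.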
